A study of Mus musculus with 17 samples.

Results

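Pancreatic islets of mice that carry the RIP-Cre transgene and no floxed gene were compared with islets of wild type mice. Arrays were taken by their titles and genotype labels, which gave 3 arrays of RIP-Cre and 3 of wt, 6 of the 17 arrays of the study. RIP-Cre is a transgene in which the rat insulin promoter drives Cre recombinase, so that Cre is made mainly in beta cells. The wt mice carry no transgene. All mice were untreated and 2 months old. The remaining 11 arrays are of mice with the transgene and floxed Men1 (Men1flf RIP-Cre, 3 arrays), floxed Rbp2 (Rbp2flf RIP-Cre, 4 arrays) or both (Men1flf Rbp2flf RIP-Cre, 4 arrays), so that 14 arrays carry RIP-Cre. The labels name neither the RIP-Cre line, the strain or sex of the mice, nor how many animals gave the islets of an array. Arrays of a group are titled repeats, which need not be separate animals, so p-values measure the spread between arrays, which may be technical.

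Islets hold insulin-secreting beta cells, glucagon-secreting alpha cells, somatostatin-secreting delta cells and pancreatic polypeptide cells, and they are picked by hand or gradient out of the enzyme-secreting acinar tissue around them. Mice with Cre and no floxed gene serve as the control for Cre itself and for the insertion of the transgene. Some RIP-Cre lines carry a human growth hormone minigene, whose product can act through the prolactin receptor on beta cells. That receptor works through Jak2 and Stat5 and raises the feedback inhibitors Cish and Socs2 and the serotonin enzyme Tph1. Whether the mice studied here carry such a minigene is not stated in the labels.

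Each value is a log2 intensity as deposited by the authors, so that a difference of 1 is a 2-fold change, and differences are given as RIP-Cre minus wt. The islet hormones were high on all 6 arrays: Ins2 lay between 13.54 and 13.62, Gcg between 13.14 and 13.82, Sst between 13.31 and 14.21 and Ppy between 12.93 and 14.05. The median level of the 19938 genes tested lay between 7.99 and 8.10 on the wt arrays and between 7.97 and 8.16 on the RIP-Cre arrays (exact two-sided permutation test, p = 1, where 3 against 3 arrays cannot go below 0.1). Over all genes, the root mean square difference between a wt and a RIP-Cre array had a median of 0.31 over the 9 pairs. Within wt it was 0.342 and within RIP-Cre 0.36, each over 3 pairs, so at the median arrays of different groups were no further apart than arrays of the same group. Fewer cells of a type and less RNA per cell cannot be told apart in whole islets.

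With limma, 0 of 19938 genes (0%) were called at an adjusted p under 0.05, and the smallest adjusted p was 1. At an unadjusted limma p under 0.05 there were 200 genes higher in RIP-Cre (1.00% of those tested) and 352 lower (1.77%). All 3 RIP-Cre arrays lay above all 3 wt arrays for 429 genes (2.15%) and below them for 341 (1.71%). These shares are the background for the counts below of genes with such a p or without overlap, except the count of chromosome neighbours. Of all 19938 genes, 10551 had a difference above 0 and 9291 below 0, which is the background for counts by sign. For counts of genes highest on 1 array no share over all genes is given. The difference was at least 2-fold for 11 genes higher and 45 genes lower in RIP-Cre. The 95% interval of the difference lay wholly within 2-fold for 19465 genes (97.6%), and within 0.5 on the log2 scale for 15959 (80.0%). The share of 97.6% is the background for every count of intervals within 2-fold below, so such counts do not set a list apart. Without wt 3, 26 genes were called, all of them lower in RIP-Cre, and they are described with the intestinal genes.

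**Figure D1:**
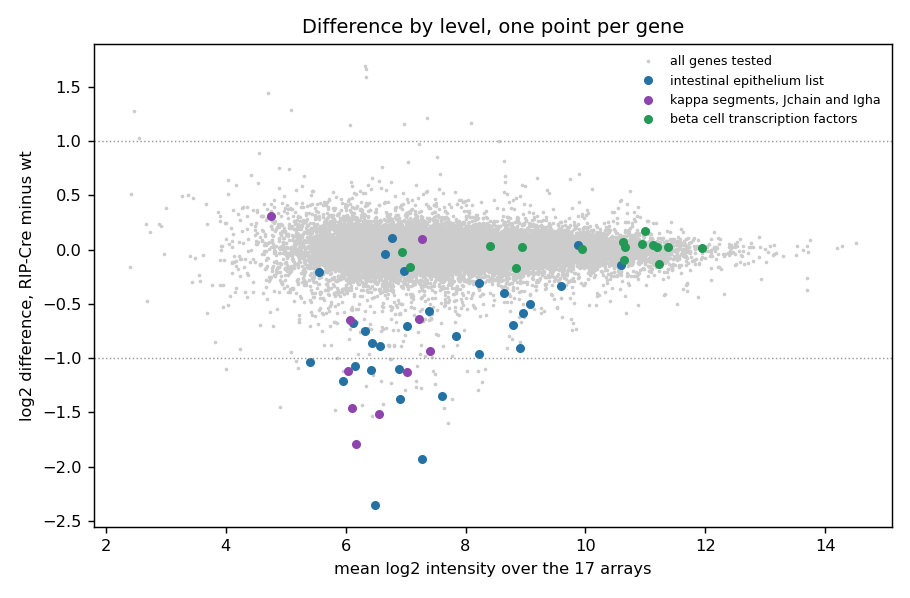
Each point is a gene, with its mean log2 intensity over the 17 arrays on the horizontal axis and the log2 difference, RIP-Cre minus wt, on the vertical axis; dotted lines mark 2-fold. The 16 beta cell transcription factors lie between -0.17 and 0.17, while 28 of the 30 intestinal genes lie below 0.

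The insulin and islet hormone genes did not differ beyond the spread between arrays. Ins2, an insulin gene, stood at 13.54, 13.62 and 13.60 on the wt arrays and at 13.54, 13.62 and 13.59 on the RIP-Cre arrays. The ranges coincide, and the 95% interval of the difference ran from -0.15 to 0.15. Gcg, which codes for glucagon, stood at 13.40, 13.82 and 13.26 in wt and at 13.78, 13.14 and 13.42 in RIP-Cre, with an interval from -0.40 to 0.31. Ppy, pancreatic polypeptide, had the values 13.94, 14.05 and 13.36 in wt and 13.89, 12.93 and 13.40 in RIP-Cre. Its difference was -0.38 (SE 0.26), with an interval from -0.92 to 0.16, and the groups overlapped. For somatostatin, Sst, the difference was -0.26 (SE 0.20) and the interval -0.68 to 0.16. Of the 11 hormone and secreted peptide genes measured, 0 had an unadjusted limma p under 0.05 and 9 had an interval within 2-fold.

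Of 18 listed transcription factors that keep beta cell identity 16 were measured, and 0 had an unadjusted limma p under 0.05. All 16 had intervals within 2-fold, as did 97.6% of all genes. The intervals reached -0.64 and 0.58 at the outermost, and the median difference was 0.03 against 0.01 over all genes. Pdx1, which activates the insulin genes, stood at 11.00, 11.41 and 10.67 in wt and at 11.14, 11.38 and 10.64 in RIP-Cre. In each group of Pdx1 values the third array was the lowest. Mafa, a factor of mature beta cells, differed by 0.17 (SE 0.19) and Nkx6-1 by -0.13 (SE 0.11), with overlapping groups. Nkx6-1 was lowest on RIP-Cre 3, at 10.83, against 11.18 to 11.33 on the other 5 arrays.

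Genes of glucose sensing, ion channels, receptors and granules gave few unadjusted p-values under 0.05. Of 14 genes of glucose sensing and metabolism, 1 had an unadjusted limma p under 0.05. That gene was Fbp1, the gluconeogenic enzyme fructose bisphosphatase, at 6.85, 6.95 and 6.81 in wt and 6.53, 6.42 and 6.48 in RIP-Cre (difference -0.39, SE 0.11). The groups did not overlap, but these levels lie under 7.52, the level below which 95% of the 1194 smell and vomeronasal receptor genes on the array lie, and such levels are called near background below. Slc2a2, the glucose transporter GLUT2, was 12.00, 11.89 and 11.75 in wt and 11.91, 11.99 and 10.91 in RIP-Cre, so that RIP-Cre 3 alone was low.

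Among 19 channel and receptor genes, Gpr119, a lipid receptor that raises insulin and incretin release, stood at 7.89, 8.03 and 7.85 in wt and at 8.42, 8.29 and 8.31 in RIP-Cre. The difference was 0.42 (SE 0.15, limma adjusted p = 1), with no overlap. On the 14 arrays with the transgene Gpr119 ranged from 6.96 to 8.53, so the knockout arrays reached below wt. All 3 RIP-Cre arrays also lay above wt for Cacna1d, a calcium channel subunit (difference 0.14), and Gcgr, the glucagon receptor (difference 0.23), which makes 3 of the 19 genes against 2.15% of all genes. Kcnj11 and Abcc8, the channel and regulatory subunits of the ATP-sensitive potassium channel, differed by 0.08 (SE 0.08) and 0.04 (SE 0.09). Of the 19 granule and exocytosis genes 0 had an unadjusted limma p under 0.05, and all 19 intervals lay within 2-fold. The 24 genes that beta cells usually keep silent had a median of -0.10, with 19 below 0. Of the 24, 11 were highest on wt 1. Leaving out wt 1 or RIP-Cre 2 gave a median of -0.06, and leaving out RIP-Cre 3 gave -0.18. The lowest member of this list was Ldha, lactate dehydrogenase, at 9.23, 9.44 and 8.88 in wt and 8.77, 8.42 and 8.92 in RIP-Cre (difference -0.48, SE 0.23). Ldha overlapped between the groups.

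**Figure D2:**
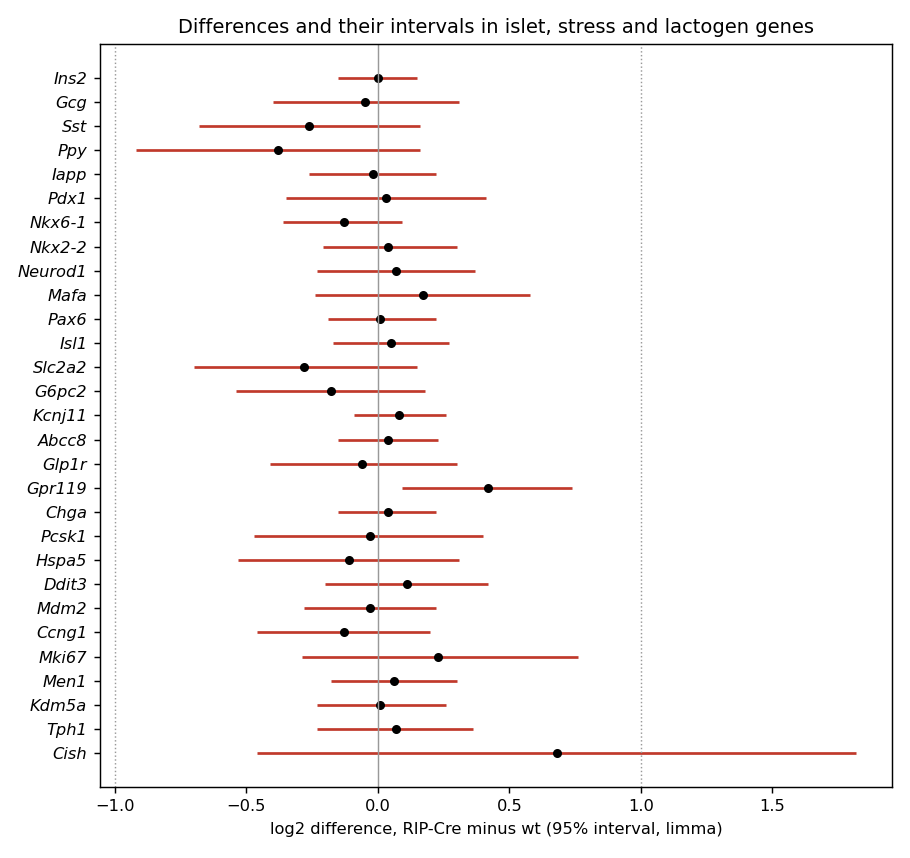
Log2 difference, RIP-Cre minus wt, with its 95% interval from limma, for genes of islet identity, secretion, stress, proliferation and lactogen signalling; the dotted lines mark 2-fold. The interval of Ins2 runs from -0.15 to 0.15, while that of Cish runs from -0.46 to 1.82, and apart from Cish every interval drawn lies within 2-fold.

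Lactogen signalling is described in full because of the growth hormone minigene of some RIP-Cre lines. Of 28 listed genes 27 were measured, and Prlr, the prolactin receptor, was not analysed here. The median difference was 0.02, with 14 genes above 0 and 13 below, and 1 gene had an unadjusted limma p under 0.05. The promoters of Cish and Tph1 are shown because their genes are the standard targets of this receptor. They are RefSeq sequences of build GRCm38.p6, from 250 bases before to 50 bases after the start, with matches to TTCNNNGAA, the core of the Stat5 motif, in capitals. Both strands were searched, on which this motif reads the same. Of all 32851 promoters of this length 8.3% hold at least 1 match and 0.457% hold at least 2. Cish holds 2 matches, and the Tph1 start shown holds 0. Of the 18 lactogen genes with a promoter in the RefSeq table, 3 hold a match: Bcl6, Cish and Socs3. Bcl6, like Cish, holds at least 2, and it differed by -0.19 (SE 0.34), with overlapping groups. Whether the matches bear on the levels was not tested.
Cish (chr9:107296409-107296708, plus strand): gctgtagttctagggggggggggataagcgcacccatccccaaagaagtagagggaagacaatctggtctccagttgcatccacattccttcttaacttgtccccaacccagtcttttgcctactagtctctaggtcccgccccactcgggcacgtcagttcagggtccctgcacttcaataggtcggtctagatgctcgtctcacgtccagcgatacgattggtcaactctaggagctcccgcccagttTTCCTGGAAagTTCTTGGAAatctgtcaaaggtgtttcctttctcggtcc
Tph1 (chr7:46667328-46667627, minus strand): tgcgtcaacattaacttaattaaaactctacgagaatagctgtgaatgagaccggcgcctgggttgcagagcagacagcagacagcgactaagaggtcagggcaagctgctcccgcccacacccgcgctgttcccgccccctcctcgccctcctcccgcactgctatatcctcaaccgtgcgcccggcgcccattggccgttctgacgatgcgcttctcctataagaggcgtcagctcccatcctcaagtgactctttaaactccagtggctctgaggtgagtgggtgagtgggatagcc

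Among the feedback inhibitors, which are made when Stat5 is active, all 4 differences were above 0, with a median of 0.31. Cish stood at 8.08, 7.70 and 8.33 in wt and at 8.57, 8.97 and 8.61 in RIP-Cre. The 3 RIP-Cre arrays lay above the 3 wt arrays, as they did for 2.15% of all genes. The difference was 0.68 (SE 0.54) with an interval from -0.46 to 1.82. The SE comes from all 17 arrays, on which Cish spread widely: the arrays with the transgene ranged from 7.18 to 10.20.

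Socs2, a second inhibitor of this receptor family, stood at 9.14, 9.04 and 9.23 in wt and at 9.59, 9.94 and 8.99 in RIP-Cre. RIP-Cre 1 and RIP-Cre 2 lay above wt and RIP-Cre 3 below it (difference 0.37, SE 0.27). Another probe set of Socs2 gave 0.18. Socs3, which also answers cytokines of the interleukin-6 family, reached 9.94 on RIP-Cre 3 and lay between 8.74 and 9.05 on the other 5 arrays. Stat3, which acts in that cytokine pathway, was likewise highest on RIP-Cre 3, at 11.12 against 10.32 to 10.58 on the others.

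Tph1, which makes serotonin in beta cells of pregnant mice, stood at 6.92, 6.91 and 6.81 in wt and at 6.88, 6.87 and 7.09 in RIP-Cre. The difference was 0.07 (SE 0.14) with an interval from -0.23 to 0.36, and these levels are near background. On the 14 arrays with the transgene Tph1 lay between 6.13 and 7.09. The gene with an unadjusted limma p under 0.05 was Tph2, the neuronal form of the enzyme, at 6.91, 6.56 and 6.86 in wt and 7.27, 6.79 and 7.20 in RIP-Cre (difference 0.31, SE 0.14). Its groups overlapped and its levels are near background too. The 6 genes of serotonin synthesis and its receptors had a median of -0.01, and 2 of them lay above 0.

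The receptor and kinase genes had intervals that exclude a 2-fold difference. Ghr, the growth hormone receptor, differed by 0.05 (interval -0.21 to 0.31), Jak2 by -0.09 (-0.39 to 0.20), Stat5a by -0.08 (-0.31 to 0.15) and Stat5b by -0.11 (-0.39 to 0.16). The 12 other target genes had a median of -0.01, with 6 above 0. They include Ccnd2, a cyclin of beta cell division, which stood at 12.48, 12.97 and 12.14 in wt and 12.67, 12.35 and 12.37 in RIP-Cre (difference -0.07, SE 0.16).

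**Figure D3:**
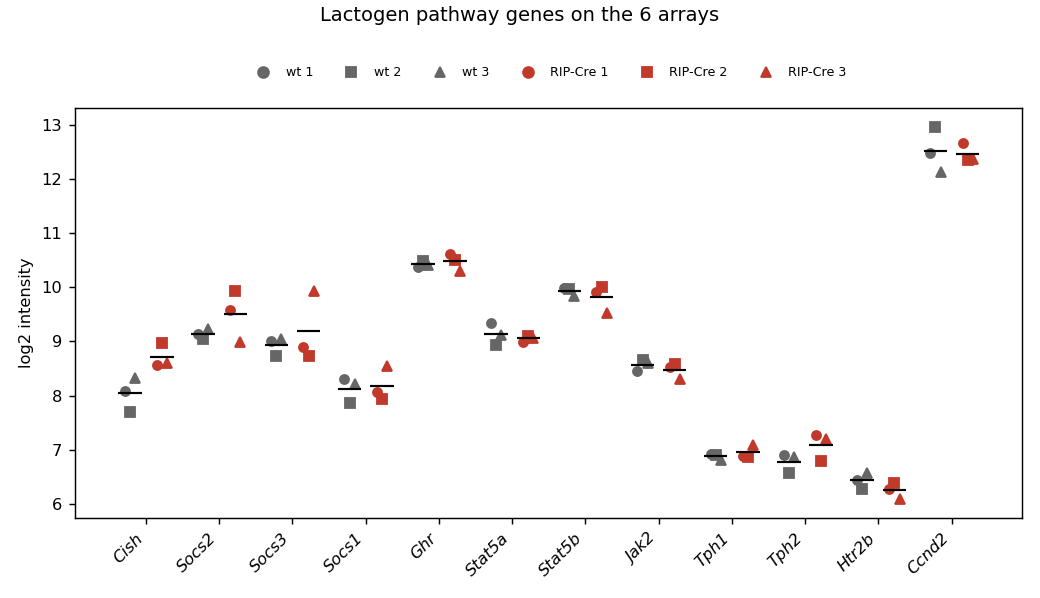
Log2 intensity of 12 lactogen pathway genes on each of the 3 wt arrays (grey) and 3 RIP-Cre arrays (red), with short lines at the group means. For Cish the RIP-Cre arrays (8.57 to 8.97) lie above the wt arrays (7.70 to 8.33), and Tph1 lies between 6.81 and 7.09 on all 6.

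The p53 targets and DNA damage genes lay close to wt, while breaks in chromosomes themselves were not measured. Among the 28 measured the median was -0.01, all 28 intervals lay within 2-fold, and unadjusted limma p-values under 0.05 were found for 1 gene higher and 1 lower. These were the death receptor Tnfrsf10b (0.30, SE 0.12) and the junction protein Perp (-0.35, SE 0.15). Mdm2, the p53 target that degrades p53, stood at 9.02, 9.37 and 9.01 in wt and 9.08, 9.25 and 8.99 in RIP-Cre. The interval of Mdm2 ran from -0.28 to 0.22.

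The unfolded protein response gave a median of 0.01 over 20 genes. Hspa5, its main chaperone, differed by -0.11 (SE 0.20) and was highest on wt 2, at 12.76, against 11.81 to 12.25 elsewhere. Among 18 oxidative stress genes, 3 had an unadjusted limma p under 0.05 and lay lower in RIP-Cre, against 1.77% of all genes. The lowest was Txnip, a glucose-induced inhibitor of thioredoxin, at 11.04, 10.91 and 11.10 in wt and 10.65, 9.98 and 10.67 in RIP-Cre (difference -0.58, SE 0.24, limma adjusted p = 1). The Txnip groups did not overlap. Its partner Txn1, thioredoxin, differed by -0.50 (SE 0.23), with overlap. Of the 18 genes 11 were highest on wt 2, where their mean was 9.45 against 9.08 to 9.23 on the others, and without wt 2 the median of the list turned from -0.07 to 0.04.

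In 25 cell cycle genes the median was 0.01 and 0 had an unadjusted limma p under 0.05. Mki67, a marker of dividing cells, was 8.61 on RIP-Cre 2 and between 7.47 and 7.81 on the other 5 arrays. The 12 floxed targets and menin partner genes all had intervals within 2-fold. Men1, which codes for menin, was 9.25, 9.45 and 9.31 in wt and 9.31, 9.49 and 9.38 in RIP-Cre, and the study's Rbp2, whose gene is now Kdm5a, was 9.20, 9.11 and 9.42 in wt and 9.37, 9.31 and 9.09 in RIP-Cre. All 16 cholesterol synthesis genes lay above 0, with a median of 0.12 and a highest value of 0.31, and 0 of them had an unadjusted limma p under 0.05. Without wt 3, their median was 0.06.

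Genes known from gut epithelium and antibody-secreting cells were among those with the lowest differences. The lists of intestinal epithelium, stomach epithelium, plasma cells, platelets, neutrophils and immunoglobulin segments were added after the values were seen and are given as descriptions. Of the 45 genes at least 2-fold lower, 17 belong to the intestinal, stomach, plasma cell, lymphocyte or immunoglobulin lists, and the rest to none of these. Of 30 intestinal genes, 28 lay below 0 and 20 had an unadjusted limma p under 0.05, all lower in RIP-Cre, with a median of -0.72. Their mean level was 8.24 on wt 1, 9.12 on wt 2 and 7.58 on wt 3, and 7.66, 7.40 and 7.59 on the RIP-Cre arrays. Hence wt 1 and wt 2 were high, while wt 3 lay within the range of RIP-Cre. Of the 30 genes 25 were highest on wt 2. With wt 1 and wt 2 both left out the median was -0.06.

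The promoters of Sis and Alpi are shown as examples of genes made by absorptive cells of the gut, with a match to TTTATNG, the core of the motif of the intestinal factors Cdx1 and Cdx2, in capitals. Both strands were searched, and 10.9% of all promoters of this length hold at least 1 match. Of the 24 intestinal genes with a promoter in the RefSeq table, 7 hold a match. Cdx1 and Cdx2 are in the intestinal list themselves and overlapped between the groups. Cdx1 stood at 10.19, 10.08 and 9.94 in wt and at 10.08, 10.01 and 10.25 in RIP-Cre (difference 0.04, SE 0.13). Cdx2 differed by -0.20 (SE 0.13), at levels near background. Whether these factors act on the genes shown was not tested.
Sis (chr3:72967814-72968113, minus strand): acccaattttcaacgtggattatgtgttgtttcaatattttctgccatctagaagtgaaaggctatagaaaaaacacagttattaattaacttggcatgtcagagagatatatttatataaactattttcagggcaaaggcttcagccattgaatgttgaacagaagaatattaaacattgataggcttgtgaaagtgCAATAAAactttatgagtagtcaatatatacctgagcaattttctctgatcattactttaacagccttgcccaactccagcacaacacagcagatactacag
Alpi (chr1:87101557-87101856, minus strand): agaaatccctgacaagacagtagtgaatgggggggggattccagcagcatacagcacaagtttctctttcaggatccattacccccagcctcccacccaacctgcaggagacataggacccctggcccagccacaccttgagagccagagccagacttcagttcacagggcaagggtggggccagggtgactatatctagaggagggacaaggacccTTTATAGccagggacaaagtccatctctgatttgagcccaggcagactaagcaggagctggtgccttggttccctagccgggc

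Fabp1, a fatty acid binding protein of gut and liver, stood at 10.10, 10.52 and 5.76 in wt and at 7.96, 5.62 and 5.74 in RIP-Cre. The gene was high on wt 1 and wt 2, intermediate on RIP-Cre 1 and low on the other 3 arrays (difference -2.35, SE 1.03). Alpi, intestinal alkaline phosphatase, was likewise highest on wt 2 and wt 1, at 9.46, 11.05 and 7.04 in wt and 8.16, 6.48 and 7.13 in RIP-Cre (difference -1.93, SE 0.69). Sis, sucrase-isomaltase of the brush border, stood at 7.10, 8.53 and 5.96 in wt and between 5.95 and 6.06 in RIP-Cre. Its difference was -1.21 (SE 0.40). Muc2, the mucin of goblet cells, stood at 7.71, 9.06 and 7.11 in wt and at 6.85, 6.73 and 7.01 in RIP-Cre, with no overlap (difference -1.10, SE 0.32). Pigr, which carries immunoglobulin A across the gut lining, differed by -1.35 (SE 0.35).

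Among antibody genes, the 8 immunoglobulin variable segments measured had a mean of 7.76 on wt 1, 7.35 on wt 2 and 6.45 on wt 3. Their mean lay between 6.16 and 6.66 on the RIP-Cre arrays, so that wt 1, not wt 2, was highest. The 11 plasma cell genes measured had a median of -0.16, with 3 above 0 and 8 below. Jchain, the joining chain of secreted immunoglobulins, stood at 9.16, 8.49 and 6.86 in wt and at 6.43, 6.57 and 6.96 in RIP-Cre (difference -1.52, SE 0.40). Igha, the constant region of immunoglobulin A, stood at 8.45, 8.60 and 8.17 in wt and at 7.34, 7.53 and 7.54 in RIP-Cre, so that wt 3 was high as well (difference -0.94, SE 0.22, limma adjusted p = 1). A second probe set of Igha gave -1.21. The segment Igkv6-20 stood at 8.76, 8.04 and 7.43 in wt and 6.81, 6.88 and 7.16 in RIP-Cre (difference -1.13, SE 0.24). Of the 8 immunoglobulin variable segments measured 5 had an unadjusted limma p under 0.05, all lower in RIP-Cre, and 2 of the 8 lay above 0. Such segments resemble each other in sequence, and how far their probe sets share signal was not tested.

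**Figure D4:**
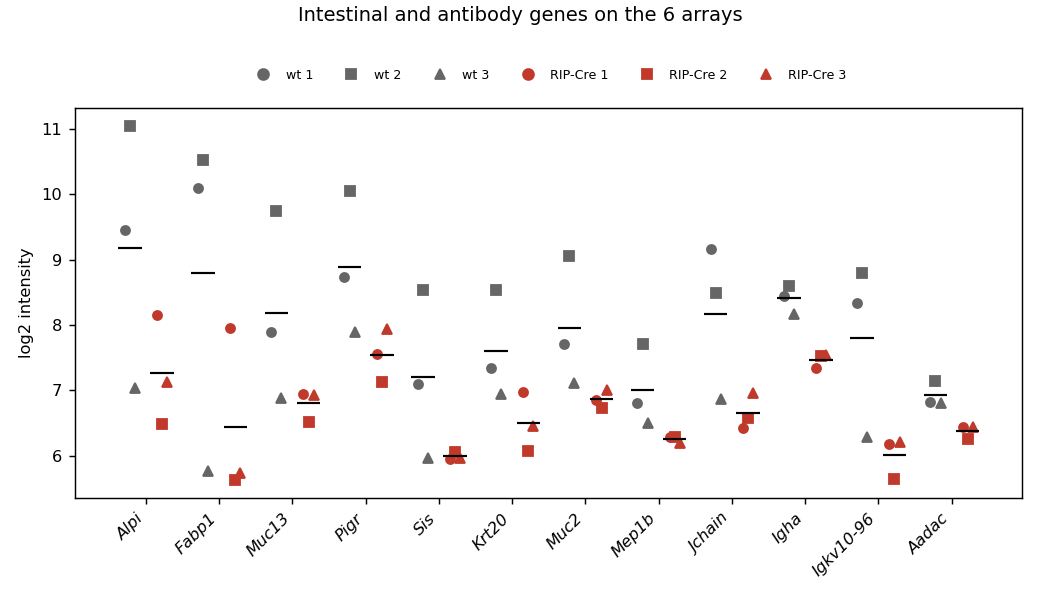
Log2 intensity of 8 intestinal genes, 3 antibody genes and Aadac on each wt (grey) and RIP-Cre (red) array, with lines at the group means. Grey squares and circles (wt 2 and wt 1) are high for the intestinal genes and Jchain, and the wt 3 triangle of Sis (5.96) lies among the RIP-Cre arrays.

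Without wt 3, 6 of the 26 genes called lower belong to the intestinal list and 4 are immunoglobulin or joining chain genes, and 23 were highest on wt 2. In all 26, wt 1 and wt 2 lay above the 3 RIP-Cre arrays, and in 4 of them wt 3 did so too. The 26 include the gene with the current symbol Rbp2, the retinol binding protein of gut cells, which is not the demethylase of the study's floxed allele. It stood at 8.72, 9.20 and 6.94 in wt and at 7.29, 6.53 and 7.16 in RIP-Cre. Of the 45 genes at least 2-fold lower with all arrays, 44 were highest on wt 1 or wt 2. With the intestinal mean level as a covariate 10 were still 2-fold lower. That list was chosen after the values were seen and some of the 45, such as Alpi, belong to it. A smaller number with the covariate is thus partly built in, and no cause was tested.

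Other cell markers set single arrays apart. The stomach genes Tff2 (12.03), Muc6 (10.79) and Gkn3 (9.69) were highest on wt 2. These are the 3 of 13 measured stomach genes that were highest there, and the list's median difference was -0.06. Atp4b, a proton pump subunit of the stomach, was lowest on wt 2, at 7.04 against 7.05 to 7.65 on the others. The 16 measured lymphocyte genes had a mean of 8.01 on wt 1 and of 7.01 to 7.36 on the other arrays. There Ms4a1, the B cell antigen CD20, was 8.55 on wt 1 against 5.87 to 6.15, and the adhesion molecule Icam1 was 11.21 against 8.01 to 8.85. Of these 16 genes 12 were highest on wt 1, and 1 had an unadjusted limma p under 0.05.

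The acinar list, enzymes of the exocrine pancreas, spread within both groups, with means of 8.14, 8.38 and 8.74 in wt and 7.42, 8.24 and 9.46 in RIP-Cre. Clps, colipase, was 12.47 on RIP-Cre 3, the array on which Slc2a2 and Nkx6-1 were lowest. The 9 platelet genes had a mean of 8.61 on RIP-Cre 2 and of 7.16 to 7.76 on the others, and Ppbp, a platelet chemokine, was 10.49 there. The immediate early gene Egr1 was also lowest on RIP-Cre 2, at 9.01 against 10.10 to 10.59. No marker named here was listed at 0, and the part of these cells in the differences between the groups was not tested beyond the covariates given.

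**Figure D5:**
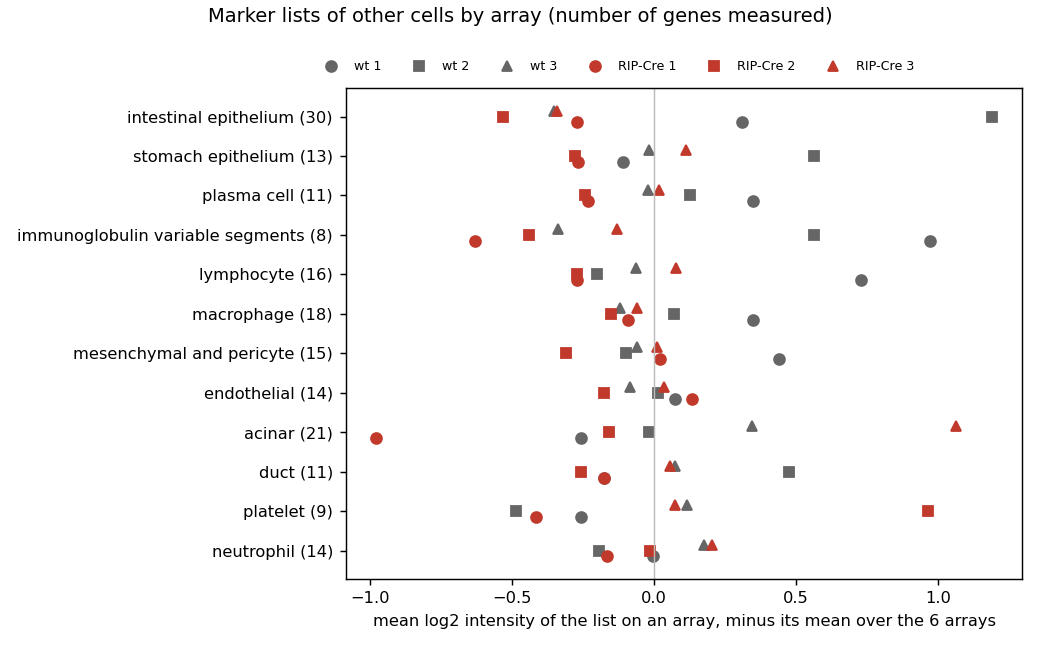
Mean log2 intensity of each marker list on an array, minus its mean over the 6 arrays, for wt (grey) and RIP-Cre (red), with the number of genes measured in brackets. Some arrays stand apart: wt 2 and, less so, wt 1 for intestine, wt 2 for stomach through 3 of 13 genes, and wt 1 for lymphocytes. RIP-Cre 2 stands apart for platelets, and RIP-Cre 1 and RIP-Cre 3 lie at the ends for acinar genes.

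Interferon and antigen presentation genes also lay mostly below wt. Of 27 interferon response genes 21 lay below 0, with a median of -0.18, 4 had an unadjusted limma p under 0.05, all lower, and 15 were highest on wt 2. Ifit3, an interferon-induced antiviral protein, stood at 8.12, 8.83 and 8.25 in wt and at 7.83, 7.76 and 8.02 in RIP-Cre (difference -0.53, SE 0.16, limma adjusted p = 1), with no overlap. Without wt 2 the median of the list was -0.05. Of 11 MHC genes 9 lay below 0 with a median of -0.27, and 7 were highest on wt 1. H2-Ab1, an MHC class II chain, stood at 10.24, 9.37 and 9.12 in wt and 9.09, 8.90 and 8.88 in RIP-Cre (difference -0.62, SE 0.26). Of the means above, that of the lymphocyte genes was high on wt 1 alone, and that of the intestinal genes on wt 2 and wt 1. Whether either bears on the interferon or MHC genes was not tested.

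The lowest p of all genes belonged to Aadac, arylacetamide deacetylase, an esterase of liver and gut. It stood at 6.82, 7.15 and 6.81 in wt and at 6.44, 6.26 and 6.44 in RIP-Cre (difference -0.55, SE 0.10, limma adjusted p = 1). The groups did not overlap, and with the intestinal mean as a covariate the difference was -0.38. Trim12a, an antiviral protein whose gene varies between inbred mouse strains, stood at 7.04, 7.15 and 7.51 in wt and at 6.85, 6.54 and 6.13 in RIP-Cre (difference -0.73, SE 0.16). With the intestinal covariate the difference of Trim12a was -0.81, and its highest array was wt 3. The labels name no strain, and the cause of the Trim12a difference was not tested. Of the 27 strain-variable genes measured Trim12a alone had an unadjusted limma p under 0.05, and the list's median was -0.03.

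The other lower genes of smallest p include Naip5, a sensor of bacterial flagellin, at 7.45, 7.36 and 7.27 in wt and 6.99, 6.96 and 6.55 in RIP-Cre (difference -0.53, SE 0.13). They also include Plcb3, a phospholipase of G protein signalling, at 9.58, 9.52 and 9.40 in wt and 9.12, 9.19 and 9.19 in RIP-Cre (difference -0.33, SE 0.09). Averaged over all 17 arrays, Plcb3 lies above the background level of 7.52, while the other 9 genes of this group have means below it. Of these, Igkv6-20 lies above it on wt 1 and wt 2. Igha lies above it on each wt array and just above it on RIP-Cre 2 and RIP-Cre 3. Defb40, Nlrp9b and Mrgprb1 differed by -0.55, -0.61 and -0.54. With the intestinal covariate all 10 kept an unadjusted limma p under 0.05, while 0 genes were called by adjusted p. The 10 were chosen for their small p on these same arrays, so keeping it is largely built in. No conclusion on a cause is drawn from it.

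The higher gene of smallest p was Wnt4, a secreted Wnt ligand. Wnt4 stood at 10.44, 10.43 and 10.38 in wt and at 10.73, 10.84 and 11.03 in RIP-Cre, with no overlap (difference 0.45, SE 0.12, limma adjusted p = 1). A second probe set of Wnt4 gave 0.11, and over the 14 arrays with the transgene Wnt4 ranged from 9.97 to 11.03. Btrc, a subunit of the ubiquitin ligase that degrades beta-catenin, stood at 10.63, 10.58 and 10.65 in wt and at 10.95, 10.83 and 11.01 in RIP-Cre (difference 0.31, SE 0.09). Ogdhl, a relative of the oxoglutarate dehydrogenase subunit, stood at 10.42, 10.36 and 10.41 in wt and at 10.69, 10.55 and 10.97 in RIP-Cre (difference 0.34, SE 0.10). These 3 genes are well above background and their wt arrays lay close together. Apobec1, the editing enzyme of apolipoprotein B RNA, stood at 9.59, 9.57 and 10.02 in wt and at 10.28, 10.25 and 10.30 in RIP-Cre (difference 0.55, SE 0.19), while the knockout arrays reached down to 8.39.

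Genes beside these on the chromosome were examined too. Of 148 measured neighbours, up to 2 on each side of 37 such genes, 10 (6.76%) had an unadjusted limma p under 0.05 in the same direction. The 37 genes were chosen from this same comparison, and some of them neighbour each other. Pairs of chosen genes were counted once from each side. The 6.76% therefore cannot be compared with the 1.00% higher and 1.77% lower over all genes, and no conclusion is drawn from it. Of the 10, 5 are immunoglobulin segments beside other such segments, with some pairs counted from both sides. Naip6, Cyp2c66, Ces1d and Ces1g are paralogs of the gene they neighbour. The remaining neighbour lies 2 genes from Cish, 6430571L13Rik, with a difference of 0.36.

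All arrays with the transgene were set against wt as well, a comparison that shares the wt arrays and the RIP-Cre arrays with the one above and adds the knockouts. With limma 1641 genes were called higher (8.23%) and 2429 lower (12.2%) in the mean of the 4 transgene groups. The median difference of all genes was -0.11, and the medians of the 11 knockout arrays (7.82 to 7.98) lay below those of wt. After quantile normalization this median was -0.01, with 1682 higher and 1328 lower calls, and after cyclic loess 1544 higher and 1232 lower. With the array median as a covariate 47 genes were called, without wt 1 590 and without wt 3 445. These calls also hold the effects of losing Men1 and Kdm5a, which cannot be told apart from the transgene except on the RIP-Cre arrays.

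All 14 arrays with the transgene lay above the 3 wt arrays for 34 genes (0.171%) and below them for 95 (0.476%). Among the lower ones were all 10 genes of smallest p in RIP-Cre against wt, whose choice the shared arrays help to fix. Aadac ranged from 5.78 to 6.44 over the 14 arrays, against 6.81 to 7.15 in wt, and Trim12a from 5.54 to 6.90, against 7.04 to 7.51. Muc2 was also below wt on all 14 arrays. Among the higher ones, Fez1, an adaptor of axonal transport, stood at 7.46, 7.10 and 7.36 in wt and 7.85, 7.64 and 7.65 in RIP-Cre, and reached 8.58 over the 14 arrays. Agtpbp1, an enzyme that trims glutamates from tubulin, stood at 10.03, 10.10 and 10.04 in wt and 10.26, 10.25 and 10.29 in RIP-Cre, with a highest value of 10.56. Ogdhl lay between 10.52 and 11.09. Pts, an enzyme of tetrahydrobiopterin synthesis, was 8.40 on each wt array and 8.53 to 9.19 on the 14. In RIP-Cre against wt each of these had an adjusted limma p of 1, and of the 20 genes named in this wider comparison, 10 per direction of smallest p among those beyond wt on all 14 arrays, 10 were not called with the array median as a covariate and 10 not with the intestinal covariate.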

How the data were processed

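Islet RNA of 17 mouse arrays was biotin-labelled with a whole-transcript kit, per the labels' protocols. The authors deposited log2 intensities of 35512 probe sets. How they were normalized, and with which software, is not given in the sources used here. Base 2 was inferred from the spacing of the lowest values. The number of arrays limits the precision, since intensities carry no counts. Probe sets were named through the platform's gene table: 21789 name 1 gene, 1621 several and 12102 none. Each of 19938 genes was taken from its single-gene probe set of highest mean over all arrays (999 genes had several).

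Group means of all 5 groups were fitted in limma 3.58.1 (lmFit, eBayes; R 4.3.3), with Benjamini-Hochberg adjustment over all genes and a threshold of 0.05. The procedure was tested on simulated data. Members and lists were chosen with earlier results of these data known. Genes named were Ins2, Gcg, Sst, Ppy, Men1 and Kdm5a, the 10 per direction with the smallest p and the 10 with the largest non-overlapping difference, the 10 per direction called over all arrays with the transgene, all lactogen genes, up to 2 list members at each end, and 5 genes at each end that set an array apart. Predicted, smell receptor and small RNA genes were left out by symbol (2941). Genes of the intestinal, stomach, plasma cell, platelet, neutrophil and immunoglobulin lists, and others outside this rule, were chosen after their values were seen. Alternatives were another normalization, filter, variance model, probe set or set of arrays, the array median and acinar mean as covariates, a replicate block, and each array left out. The intestinal and lymphocyte covariates, and leaving out wt 1 and wt 2 together, were chosen after seeing the data.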

Additional observations from a re-analysis of the deposited data

How the results depend on the processing

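In RIP-Cre against wt, 0 genes were called by limma under every alternative run except 2. Leaving out each array in turn gave 0 to 26 calls, with 26 without wt 3 and 0 otherwise, and leaving out wt 1 and wt 2 together gave 50, all lower, where the lone wt array is assumed to vary like the other groups. The replicate block gave 0 calls. Same-numbered wt and RIP-Cre arrays had deviations that correlated at -0.06, 0.26 and 0.31, so the numbers were not taken as pairs, and wt 1 correlated best with RIP-Cre 3 (0.20) and wt 2 with RIP-Cre 1 (0.31). Intervals within 2-fold were found for 18823 to 19563 genes where all were tested. For arrays with the transgene against wt, 4070 genes were called, against 47 with the array median as a covariate and 1189 with the intestinal covariate; leaving out each wt or RIP-Cre array gave 445 to 6979, with 590 without wt 1, 6708 without wt 2, 445 without wt 3 and 6979 without RIP-Cre 3. The cause was not tested. Of 121 named genes in RIP-Cre against wt, 11 were called under an alternative: Alpi, Jchain, Muc2, Pigr, Rbp2, Sis and 2 immunoglobulin segments without wt 3, and Gbp3, Krt19 and Tmem207 without wt 1 and wt 2. Of 2140 values under alternatives, 124 had the other sign, none of them called. Of 663 list medians under alternatives, 15 moved by more than the spread between arrays. With 3 arrays a group the median SE was 0.13, and differences of several SE, such as that of Aadac, were not called.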

Other observations

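Some values belong to single arrays and to genes outside the lists above. Genes more than 1 on the log2 scale above all other 5 arrays numbered 80, 57 and 42 on wt 1, wt 2 and wt 3, and 24, 18 and 16 on the RIP-Cre arrays. Hoxd12, a homeobox gene of limb patterning, was 10.73 on wt 1 and 6.75 to 7.24 on the others. The small nuclear ribonucleoprotein gene Snrpc was 11.86 on wt 1, while 2 further probe sets of Snrpc gave 8.73 and 8.43 there. Tmem207, a transmembrane protein, was 11.11 on wt 3 and at most 7.01 elsewhere. Car5b, a mitochondrial carbonic anhydrase, was 10.69 on RIP-Cre 1 and at most 6.26 elsewhere, and the metalloprotease Adam25 was 8.99 on RIP-Cre 3 and at most 5.16 elsewhere. Gbp3, an interferon-induced GTPase, was 9.85 on wt 3 and 7.14 to 7.45 on the others.

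Among further cell lists, Rgs5, a pericyte marker, stood at 10.18, 10.22 and 9.84 in wt and at 9.91, 9.57 and 9.22 in RIP-Cre (difference -0.51, SE 0.17). The smooth muscle actin Acta2 differed by -0.42 (SE 0.18). Their list of 15 mesenchymal and pericyte genes had 3 above and 12 below 0, with a median of -0.14. Of the 15 genes 9 were highest on wt 1, and without wt 1 the median was 0.00. Krt19, a duct keratin, stood at 7.61, 8.07 and 8.41 in wt and at 7.42, 7.08 and 7.61 in RIP-Cre (difference -0.66, SE 0.17). The 11 duct genes measured had 3 above and 8 below 0, with a median of -0.08. Erbb3, a receptor of Schwann cells, did not overlap between the groups (difference -0.37, SE 0.12). Its list of 10 Schwann and neuronal genes had 5 above and 5 below 0, a median of 0.00, and a highest member, Cdh19, at 0.40. The 14 endothelial genes had a median of 0.02 and all their intervals lay within 2-fold. Each of these genes had an adjusted limma p of 1.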
